A study of Homo sapiens with 4 samples.

Results

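The loci of MUC4, MUC1 and TCF3 were 3 regions fixed by genome position, each a gene with 500 kb on either side. Described in them were the deposited peaks of a study of the histone mark H3K9me3. On the build hg19, MUC4 was taken as chromosome 3 from 195470001 to 195540000 (70 kb), MUC1 as chromosome 1 from 155155001 to 155165000 (10 kb) and TCF3 as chromosome 19 from 1600001 to 1660000 (60 kb). These borders are rounded, and the annotated genes are shorter, at 65.2 kb for MUC4, 7.09 kb for MUC1 and 43.3 kb for TCF3 in RefSeq. The rule uses positions and no measured value, though the genes were picked with earlier results of these data known. The regions held 304 of the 326674 peaks of one deposited list and 149 of the 264919 peaks of the other, counted on chromosomes 1 to 22 and X.

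The study profiled H3K9me3 by chromatin immunoprecipitation and sequencing in U2OS, an established human osteosarcoma cell line, with 2 samples precipitated with an H3K9me3 antibody and 2 input samples without antibody. All 4 samples carry KRAB-IDR3-TCF3 in their names. The labels do not explain this name, and no sample without it was analysed here, so a value at TCF3 cannot be set against cells that lack whatever it stands for. The deposited data were 2 broad peak lists, list 1 and list 2. Going by the labels, list 1 would belong to the inputs and list 2 to the antibody samples. Going by the peak names inside, each list is an immunoprecipitation. Because these contradict each other, the lists were treated as unassigned. There is no replicate error for any value, no test between samples could be made, and the depth is unknown.

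H3K9me3 is written by methyltransferases such as SUV39H1 and SETDB1 and is bound by HP1 proteins, which compact chromatin and keep genes silent. MUC4 and MUC1 encode mucins anchored in the membrane of epithelial cells, and both carry tandem repeats in their coding sequence. The repeats of MUC4 are a common target for imaging a locus in living cells with fluorescent CRISPR systems. TCF3 encodes the E proteins E12 and E47, helix-loop-helix transcription factors that are needed for the development of B lymphocytes. KRAB is also the name of a repressor domain of zinc finger proteins, which brings SETDB1 to chromatin through KAP1. RNA was not measured, so nothing is known here about whether these genes were expressed.

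The 3 genes lay on the minus strand, so each starts toward the upper border of its interval, the one with the higher coordinate. Their promoter sequences are shown because the start ends of the intervals differed. The start end of the MUC4 interval held peaks, while those of the MUC1 and TCF3 intervals were bare in both lists. The annotated genes are shorter than the intervals, so a start end may lie partly outside the gene. A link between promoter letters and peaks was not tested. The sequences come from RefSeq on GRCh38.p14, which is not the build of the peaks, and they were therefore not placed among the peaks. Each runs from 250 bases before the gene start to 50 bases after it, 5′ to 3′ on the minus strand, with CG pairs in capitals. They are chr3:195811880-195812179 for MUC4, chr1:155192866-155193165 for MUC1 (the first of 2 entries, which differ by a shift of 6 bases) and chr19:1652566-1652865 for TCF3.
MUC4: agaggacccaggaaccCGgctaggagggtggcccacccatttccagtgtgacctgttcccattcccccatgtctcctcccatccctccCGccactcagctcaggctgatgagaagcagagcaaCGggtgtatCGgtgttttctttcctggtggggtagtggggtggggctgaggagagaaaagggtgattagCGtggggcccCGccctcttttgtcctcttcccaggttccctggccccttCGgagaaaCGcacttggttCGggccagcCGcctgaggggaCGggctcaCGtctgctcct
MUC1: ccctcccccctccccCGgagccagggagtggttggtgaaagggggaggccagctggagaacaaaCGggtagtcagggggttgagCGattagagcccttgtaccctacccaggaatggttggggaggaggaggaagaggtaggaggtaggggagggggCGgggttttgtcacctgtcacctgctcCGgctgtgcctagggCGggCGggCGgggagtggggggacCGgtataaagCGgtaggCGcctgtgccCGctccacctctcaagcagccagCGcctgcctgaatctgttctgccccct
TCF3: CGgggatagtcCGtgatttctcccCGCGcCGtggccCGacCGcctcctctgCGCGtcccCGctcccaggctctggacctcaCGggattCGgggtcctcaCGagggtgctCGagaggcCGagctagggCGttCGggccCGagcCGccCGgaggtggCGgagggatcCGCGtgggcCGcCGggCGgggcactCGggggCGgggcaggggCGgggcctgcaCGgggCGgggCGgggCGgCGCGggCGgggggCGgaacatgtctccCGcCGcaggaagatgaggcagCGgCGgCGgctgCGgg
The TCF3 promoter held 43 CG pairs, more than 95.02% of the 35116 promoters in the table. MUC4 held 12 and MUC1 held 13, close to the table's median of 14. The letters TATAAA, searched on both strands, occurred once in MUC1 and in neither of the others, and in 11.5% of all promoters. GGGCGG, also on both strands, occurred 9 times in TCF3, 4 times in MUC1 and 1 time in MUC4, and in 45.0% of all promoters. A TATA box and a GC box are textbook promoter elements, but a match is only a run of letters.

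The TCF3 gene body stood out from its surroundings in both lists, MUC4 did so less clearly, and MUC1 was almost bare. The quantity below is the covered share, the percentage of base pairs that lie under a peak. In the TCF3 gene body it was 47.4% in list 1 and 33.2% in list 2, against 12.1% and 3.28% in the flanks. In the MUC4 gene body it was 49.98% and 30.4%, against 23.2% and 10.5% in the flanks. In the MUC1 gene body it was 3.44% and 0%, against 30.2% and 15.5% in the flanks.

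**Figure D1:**
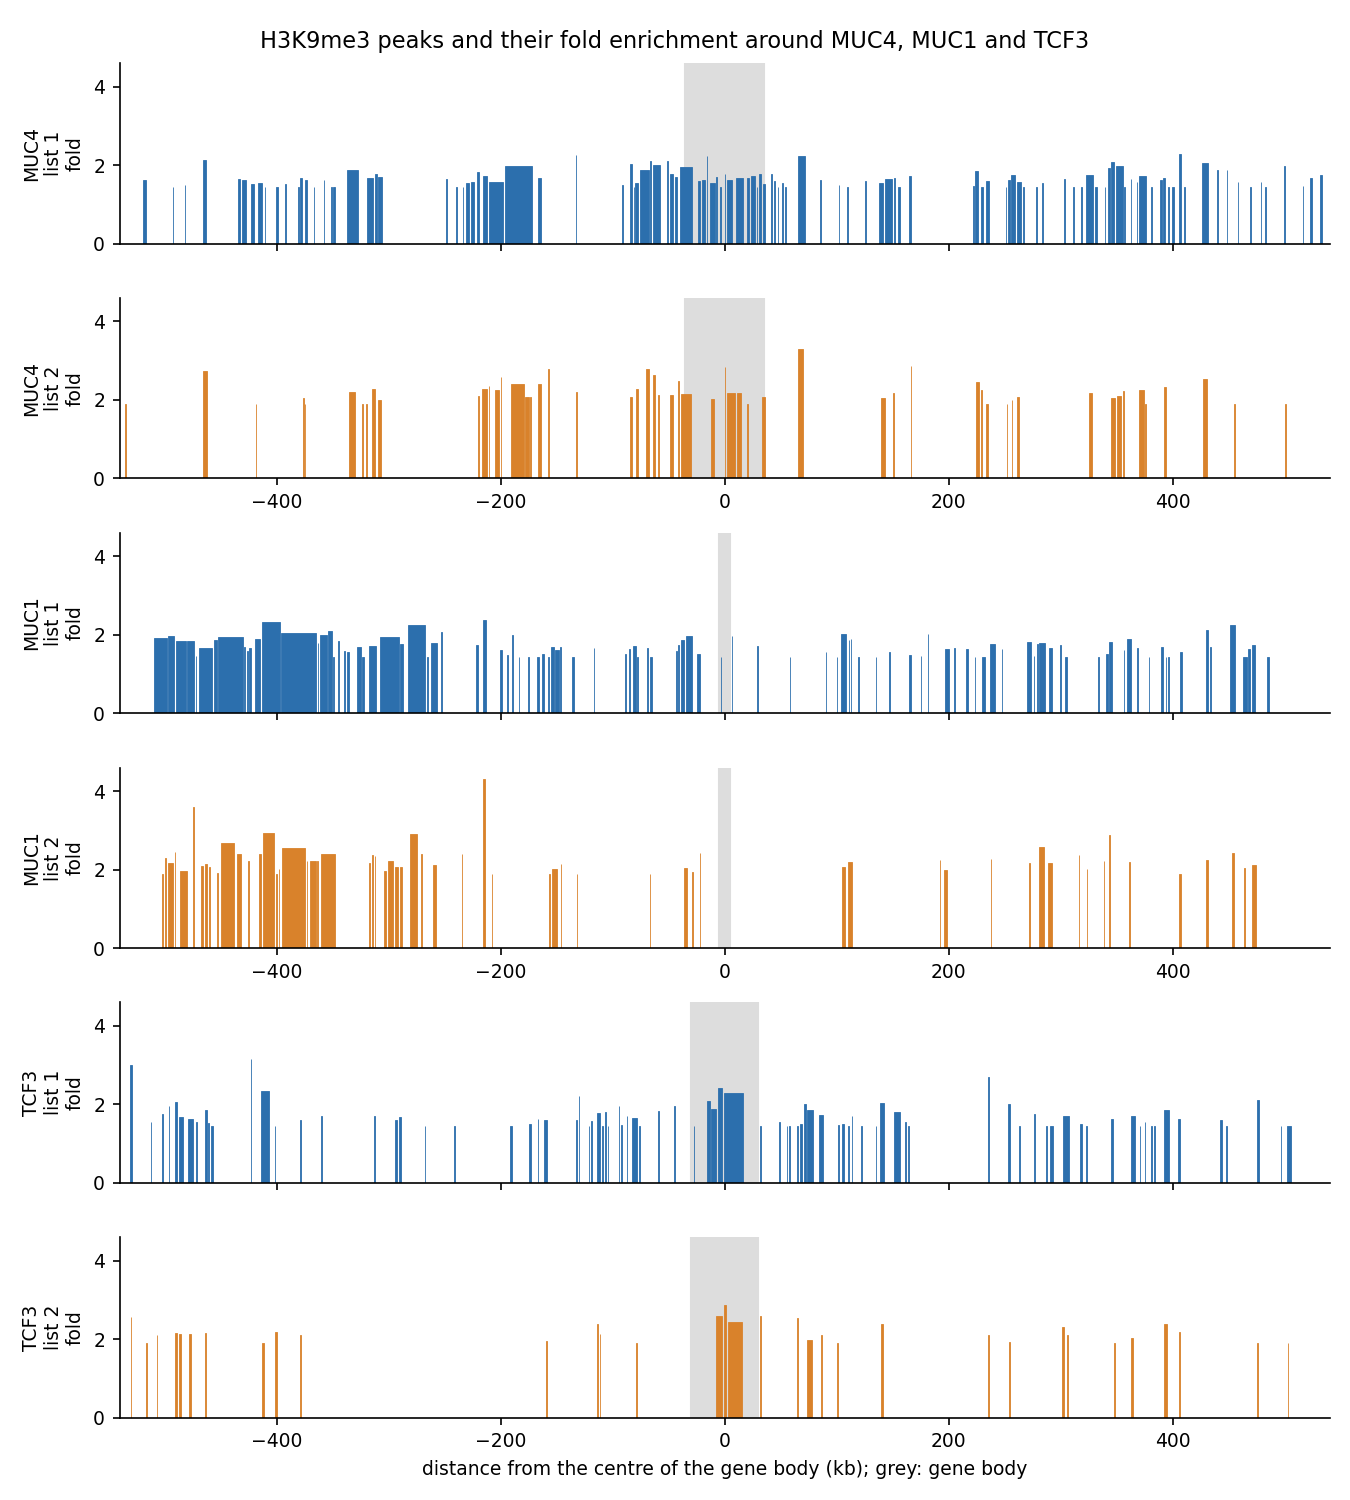
Peaks of list 1 (blue) and list 2 (orange) around each gene. The x axis is the distance from the centre of the gene body in kb, bar width is peak width, bar height is the authors' fold enrichment and grey marks the gene body; a block of peaks fills much of the TCF3 body, while the dense peaks of the MUC1 locus lie at its far lower side.

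The peaks at all 3 loci were of low enrichment, like nearly all peaks of these lists. The median fold enrichment, a deposited ratio that sets each peak against the background level of the peak caller, stood at 1.64 for all of list 1 and 2.12 for all of list 2. No peak was under 1.44 in list 1 or under 1.90 in list 2. The median q-value, the authors' p-value corrected for many peaks, was 0.671 in list 1 and 0.269 in list 2 at the MUC4 locus. It was 0.634 and 0.258 at the MUC1 locus and 0.679 and 0.293 at the TCF3 locus. A q-value of at most 0.05 was reached by 0 of 115 peaks of list 1 and 1 of 55 peaks of list 2 at MUC4. It was reached by 0 of 103 and 4 of 61 peaks at MUC1 and by 2 of 86 and 1 of 33 peaks at TCF3. Over the whole lists the median q-value was 0.640 and 0.296, and 621 peaks of list 1 (0.190%) and 5488 peaks of list 2 (2.07%) reached 0.05. The covered shares therefore rest mostly on peaks that were weak by the peak caller's own measure.

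In the MUC4 gene body, peaks were denser than in the flanks. List 1 held 15 peaks there (21.4 per 100 kb, against 10.0 per 100 kb in the flanks) and list 2 held 7 (10.0 against 4.80 per 100 kb). Their widths were 367 to 11415 bp with a median of 1770 bp in list 1, and 494 to 9182 bp with a median of 2544 bp in list 2, against medians of 1422 and 1437 bp in the flanks. Folds were 1.44 to 2.23 with a median of 1.67 in list 1 and 1.90 to 2.84 with a median of 2.14 in list 2, close to the medians of the whole lists. Peaks across a border were counted for the body only, which raises its density. For scale, the whole lists held 326674 and 264919 peaks over 3034.5 Mb.

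The widest of these peaks lay across the lower border, at the far end of the interval. It ran from 195464731 to 195476145 in list 1 (11415 bp, fold 1.96) and from 195465660 to 195474841 in list 2 (9182 bp, fold 2.14). In the interior, list 1 had peaks from 195515392 to 195520954 (5563 bp, fold 1.67), from 195491761 to 195496475 (4715 bp, fold 1.55), from 195507303 to 195511747 (4445 bp, fold 1.63) and from 195528455 to 195531643 (3189 bp, fold 1.73). List 2 had peaks from 195507410 to 195513788 (6379 bp, fold 2.17), from 195515550 to 195519870 (4321 bp, fold 2.18), from 195492683 to 195495226 (2544 bp, fold 2.01) and, across the upper border, from 195538686 to 195540879 (2194 bp, fold 2.08). Of the gene body base pairs under peaks of list 2, 86.7% were also under peaks of list 1, against 88.2% over the whole genome. Of those under peaks of list 1, 52.7% were also under peaks of list 2, against 49.5% over the whole genome. The sources used here do not say how reads from tandem repeats were placed.

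Along MUC4 the coverage was broken into pieces. With the body divided into 10 segments of 7 kb, numbered from the start end to the far end, the shares of list 1 ran from 11.6% in segment 6 to 87.8% in segment 10, and none was empty. In list 2 they ran from 0% in segments 8 and 9 to 74.8% in segment 4. Segment 1, at the start end of the interval, was covered 45.5% and 18.8%. The longest stretch of the body without a peak was 4.95 kb in list 1 and 17.8 kb in list 2, from 195474842 to 195492682.

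The flanks of MUC4 were uneven, and the gene body was not their peak. Of the 20 flank bins of 50 kb, counted outward from the gene borders, 18 were covered less than the gene body in list 1 and 18 in list 2. Among all windows of 70 kb in the genome, 10.3% in list 1 and 10.9% in list 2 were likewise covered more than at least 18 of their own 20 flank bins, a threshold chosen after the values had been seen. The bins above MUC4 in list 1 were the adjoining lower bin (56.4%) and the bin from 195270001 to 195320000 (71.9%). In list 2 the same bins were above it, at 32.0% and 31.3%. The bin covered least was the one from 195370001 to 195420000 in list 1 (3.002%). In list 2, the bins from 195220001 to 195270000 and from 195590001 to 195640000 were both at 0%. The bin from 195220001 lay in the longest stretch of the locus without a peak, 86.5 kb from 195198355 to 195284808, and the longest in list 1 was 56.8 kb, from 195199074 to 195255824.

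The widest peak of the MUC4 locus lay in the lower flank in both lists, from 195308708 to 195332944 in list 1 (24.2 kb, fold 1.96) and from 195313969 to 195325632 in list 2 (11.7 kb, fold 2.39). The highest fold in list 2, 3.30 with a q-value of 0.0149, belonged to the peak from 195570207 to 195574669, 30.2 kb beyond the upper border. List 1 had a peak of fold 2.22 there, from 195570578 to 195576739. The highest fold in list 1 was 2.27, from 195910792 to 195912105, where list 2 had no peak. Toward lower coordinates, the nearest protein-coding genes in RefSeq order are MUC20, another mucin gene, then APOD, the gene of apolipoprotein D, and PPP1R2. Toward higher coordinates they are LOC124905352, TNK2, a tyrosine kinase gene, and TFRC, which encodes the transferrin receptor. Their hg19 positions were not used here, and no value was given to them.

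The excess of the MUC4 body over its flanks was 26.8 percentage points in list 1 and 19.9 in list 2, beside an SD over the 20 flank bins of 18.2 and 11.01. It depended on how the lists were limited. When list 1 was restricted to peaks that reach the weakest −log10 p found in list 2, the gene body was covered 9.52% and the flanks 8.49%, an excess of 1.02 points. With flanks of 1 Mb it was 11.9 points in list 1 and 8.46 in list 2, because the flanks were then covered 38.1% and 21.9%.

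**Figure D2:**
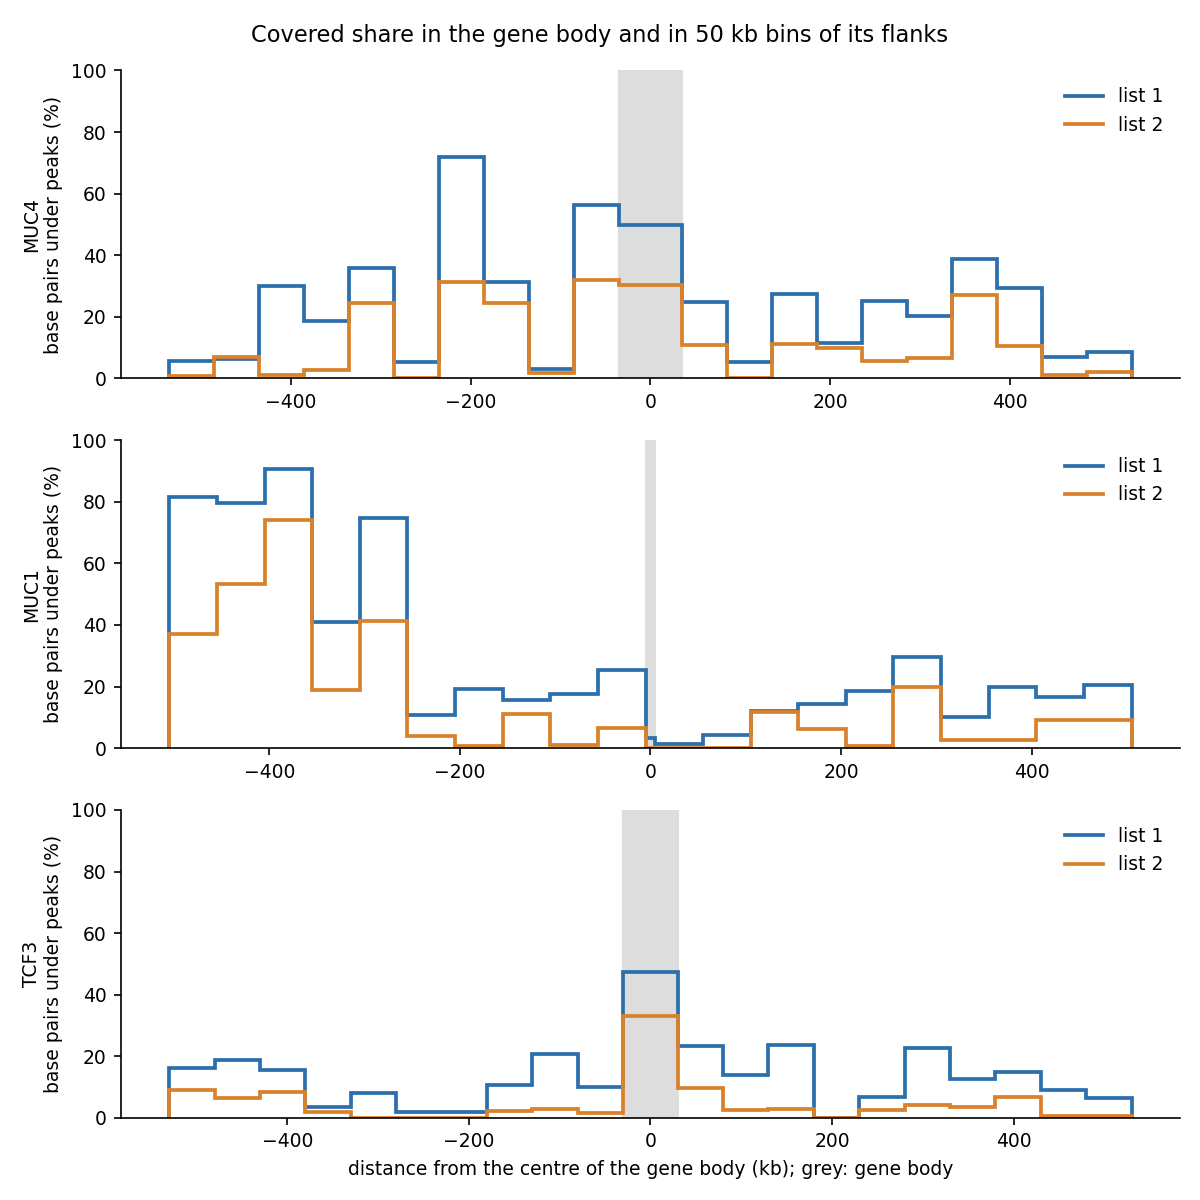
Covered share in the gene body (grey) and in 50 kb bins of the flanks for list 1 (blue) and list 2 (orange). The x axis is the distance from the centre of the gene body in kb and the y axis the percentage of base pairs under peaks; the TCF3 body, at 47.4% and 33.2%, is above all 20 of its bins in both lists, and the lower side of MUC1 rises to 90.5% and 74.1%.

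MUC1 lay in a stretch that peaks of list 2 hardly touched. List 1 held 1 peak in the 10 kb of the gene body, from 155156310 to 155156653, which was 344 bp wide and had the lowest fold of the list, 1.44. It lay near the lower border and, as the annotated gene is shorter than 10 kb, may be outside the gene. List 2 held 0. The nearest peaks of list 2 were those from 155137884 to 155138192, 16.8 kb below the gene, and from 155265019 to 155267288, 100.02 kb above it. Between them was the longest stretch without a peak in this locus, 127 kb from 155138193 to 155265018. In list 1 the longest such stretch was 31.8 kb, from 155218662 to 155250413, on the side of the gene's start. The nearest peaks of list 1 outside the body lay 17.2 kb below it (fold 1.50) and 1.08 kb above it (fold 1.96). The adjoining lower bin of 50 kb was covered 25.4% in list 1.

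Of the 20 flank bins, 19 in list 1 and 18 in list 2 were covered more than the MUC1 gene body, and in list 2 the other 2 held no peak either. Across the genome, 22.6% of windows of 10 kb in list 1 and 24.0% in list 2 were likewise covered less than at least 18 of their own flank bins, and 17.0% and 34.5% of them held no peak at all. The bare gene body of MUC1 was thus a common state for a window of its size. The adjoining upper bin, from 155165001 to 155215000, was the least covered bin in list 1, at 1.26%, and was at 0% in list 2, as was the next bin above it.

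The lower flank of MUC1 changed sharply with distance. The 5 bins within 250 kb of the gene averaged 17.7% ± 5.37 in list 1 and 4.70% ± 4.30 in list 2 (SD over 5 bins), and the 5 bins from 250 to 500 kb averaged 73.5% ± 19.0 and 44.9% ± 20.4. On the upper side the near bins averaged 10.1% ± 7.16 and 3.79% ± 5.22 and the far bins 19.3% ± 7.04 and 8.66% ± 7.03. The bin covered most, from 154755001 to 154805000, reached 90.5% in list 1 and 74.1% in list 2. The widest peaks of the locus lay inside it and ran from 154763940 to 154795538 in list 1 (31.6 kb, fold 2.04) and from 154764656 to 154785519 in list 2 (20.9 kb, fold 2.55). The flank average of MUC1 therefore came largely from these far lower bins, and with flanks of 250 kb the shares were 3.44% and 0% in the gene body against 13.9% and 4.24% in the flanks.

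The highest folds of the MUC1 locus fell at 1 place in both lists, between the dense block and the gene. They were 2.37 in list 1, from 154943880 to 154946840, and 4.31 in list 2, from 154944562 to 154945855, where the q-value was 0.000698. These peaks were narrow, at 2961 and 1294 bp, and lay 208 and 209 kb below the gene body. The fold of list 2 was above those of 99.97% of the peaks in that list, and the fold of list 1 above those of 98.7%. In RefSeq order, the neighbours toward lower coordinates are TRIM46, KRTCAP2 and DPM3, the last a subunit of dolichol-phosphate mannose synthase. Toward higher coordinates they include THBS3, a thrombospondin gene, and MTX1.

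TCF3 carried a compact block of peaks inside the gene. List 1 held 5 peaks in the gene body, and 4 of them lay less than 10 kb apart from 1614358 to 1646459, a block of 32.1 kb that was covered 87.0%. List 2 held 3 peaks, from 1622497 to 1644991, a block of 22.5 kb covered 88.4%. By number there were 8.33 peaks per 100 kb in the gene body and 8.10 in the flanks in list 1, and 5 and 3 in list 2. In both lists the peaks of the body were wider. The median width was 3913 bp in the body and 957 bp in the flanks in list 1, and 5259 and 796 bp in list 2.

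The widest peak of the whole TCF3 locus lay in the gene in both lists. In list 1 it ran from 1629122 to 1646459 (17.3 kb, fold 2.29, q-value 0.178), and its fold was above those of 98.1% of all peaks in the list. In list 2 it ran from 1632660 to 1644991 (12.3 kb, fold 2.45, q-value 0.137). The other peaks of list 1 ran from 1623925 to 1627837 (fold 2.41), from 1618194 to 1622624 (fold 1.88), from 1614358 to 1616591 (fold 2.09) and, apart from the block, from 1602299 to 1602827 (fold 1.44, the lowest of the list). The other peaks of list 2 ran from 1622497 to 1627755 (fold 2.59) and from 1629054 to 1631353 (fold 2.88, q-value 0.0493), and 2.88 was the highest fold of the locus in that list. The highest fold in list 1, 3.15, belonged to a peak of 401 bp from 1206865 to 1207265, 393 kb below the gene, where list 2 had no peak.

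The block did not reach either end of the TCF3 interval. With the body divided into 10 segments of 6 kb, numbered from the start end, segments 1 and 2 were covered 0% in both lists and segment 3 was covered 74.3% in list 1 and 49.8% in list 2. Segment 4 was covered 100% in both lists. Segment 5 was covered 100% and 78.2%, segment 6 78.6% and 78.4%, segment 7 75.1% and 25.1% and segment 8 37.2% and 0%. Segment 9 held no peak in either list, and segment 10 was covered 8.82% and 0%. The stretch without a peak at the start end was 13.5 kb in list 1, from 1646460 to 1660000. The annotated gene is shorter than the 60 kb interval, so part of the interval's ends lies outside the gene.

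**Figure D3:**
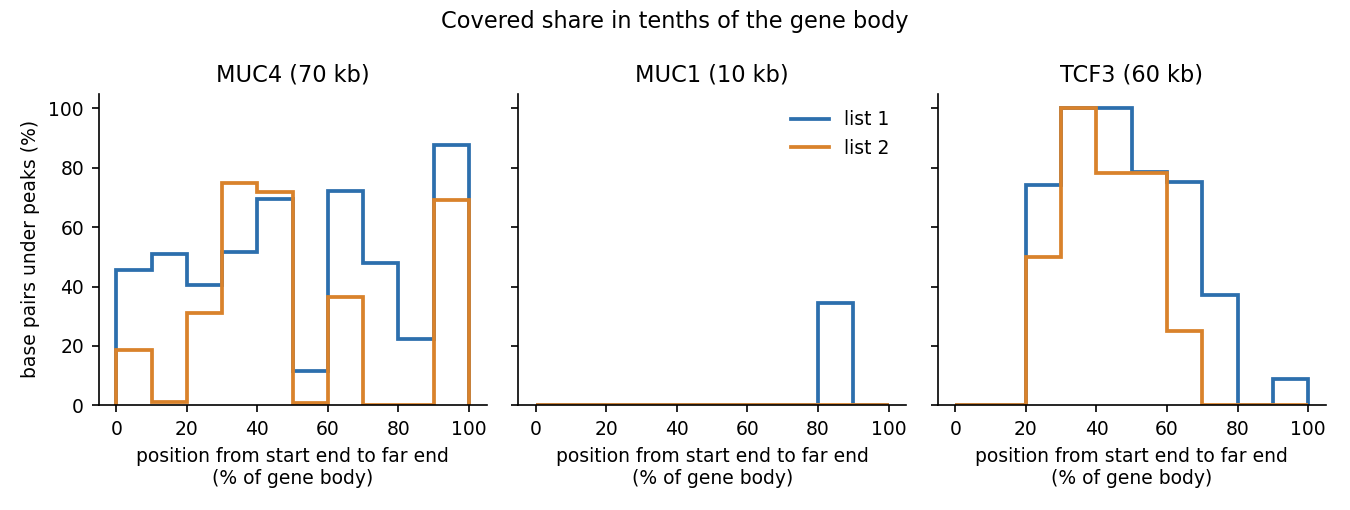
Covered share in 10 equal segments of the gene body, from the start end of the interval (left) to its far end (right), for list 1 (blue) and list 2 (orange). The y axis is the percentage of base pairs under peaks. In list 1, TCF3 has a block between 20% and 80% of its 60 kb interval, a bare start end and 1 narrow peak near its far end. MUC4 has separate pieces, and MUC1 has 1 narrow peak of list 1.

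TCF3 was covered more than each of its 20 flank bins in both lists. The bins ranged from 0% to 23.6% with a median of 11.7% in list 1, and from 0% to 9.55% with a median of 2.52% in list 2. The bin covered most was the one from 1760001 to 1810000 in list 1 and the adjoining upper bin, from 1660001 to 1710000, in list 2. In list 1 the bin from 1810001 to 1860000 held no peak, and in list 2 this was so of 4 bins. The longest stretch without a peak was 70.9 kb in list 1, from 1794310 to 1865246, and 218 kb in list 2, from 1252155 to 1470131. Among all windows of 60 kb, 11.3% in list 1 and 11.7% in list 2 were covered more than at least 18 of their own 20 flank bins, and 3.24% and 3.51% were covered more than all 20, as TCF3 was. The excess of the body over the flanks was 35.4 percentage points in list 1 and 29.9 in list 2, beside an SD over the flank bins of 7.44 and 3.13. An excess of at least this size was found in 2.71% of the genome windows in list 1 and 3.93% in list 2, and on chromosome 19 in 48 and 55 of 967 windows. For MUC4 the same shares of windows of 70 kb were 6.44% and 9.29%.

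**Figure D4:**
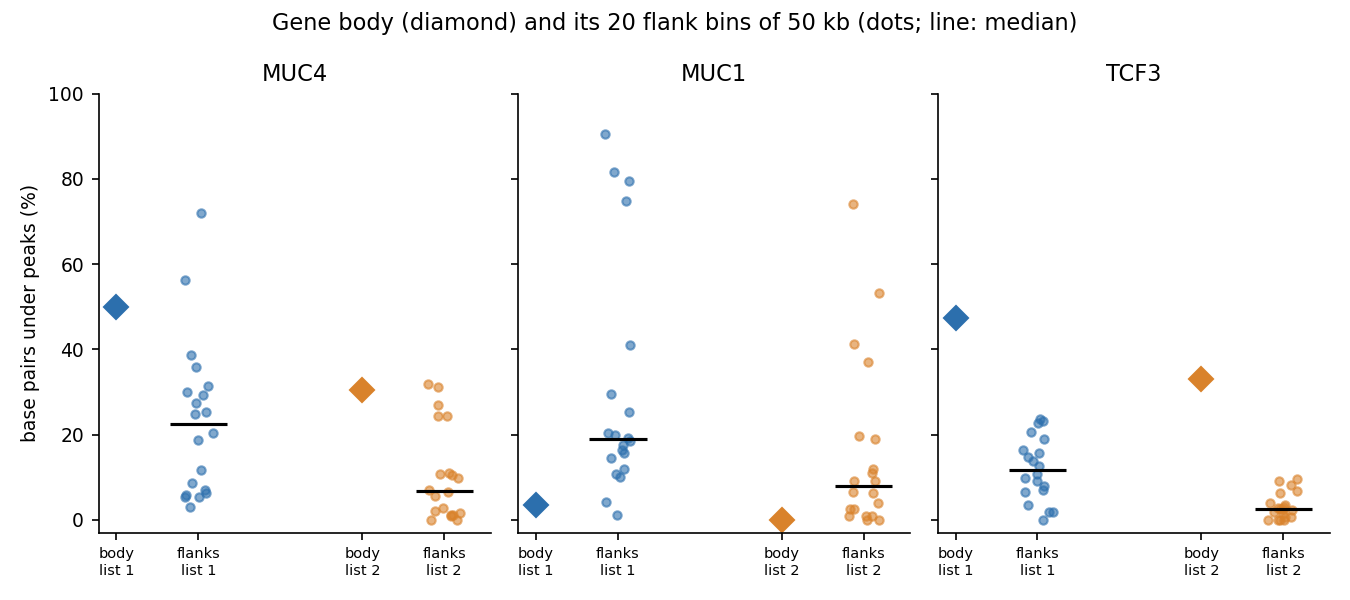
Covered share of each gene body (diamonds) and of its 20 flank bins of 50 kb (dots, with a line at their median) in list 1 (blue) and list 2 (orange). The y axis is the percentage of base pairs under peaks; TCF3 is above all of its bins, MUC4 above 18 of 20, and MUC1 at or near the bottom of its own.

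The excess at TCF3 was larger without the weaker peaks of list 1. Restricted in the same way to peaks as strong as the weakest of list 2, the gene body was covered 46.5% and the flanks 2.26%, an excess of 44.3 points. How many genome windows reach such an excess was not computed for the restricted list. Counting only base pairs under peaks of both lists, the body was covered 30.9% and the flanks 2.82%. Within the body 65.1% of the covered base pairs of list 1 and 93.1% of those of list 2 were shared, and in the flanks 23.4% and 85.9%. Over the whole genome these shares were 49.5% and 88.2%.

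The nearest windows covered as much as the TCF3 body lay far from it. Such distances were computed for TCF3 and MUC4 only, so whether they are unusual is not known. Going outward in steps of 10 kb, the nearest window of 60 kb that was covered at least as much as the gene body lay 1100 kb below it in list 1, from 440001 to 500000 (50.9%), and 1110 kb below it in list 2, from 430001 to 490000 (40.4%). Above the gene it lay 1130 kb away in both lists, from 2790001 to 2850000, at 50.05% and 34.9%. For MUC4 the nearest such window of 70 kb lay 110 kb below the gene in list 1 and 100 kb below it in list 2. Above MUC4 it lay 800 kb away in list 1 and 1500 kb away in list 2. In RefSeq order, TCF3 is followed toward lower coordinates by UQCR11, which encodes a small subunit of respiratory complex III, by MBD3, a subunit gene of the NuRD chromatin remodelling complex, and by MEX3D. Toward higher coordinates it is followed by ONECUT3, a transcription factor gene, by ATP8B3 and by REXO1. The interval of 60 kb may take in part of a neighbour.

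Set against the genome by covered share in the full lists, the gene bodies of MUC4 and TCF3 were ordinary, and their surroundings were sparse. The TCF3 body was covered more than 51.7% of windows of its size in list 1 and 68.2% in list 2, and the MUC4 body more than 54.5% and 65.1%. These ranks of gene bodies were not computed for restricted lists. List 1 restricted to peaks that reach the weakest −log10 p of list 2 covered 580 Mb of 3034.5 Mb. The TCF3 body was then still covered 46.5%, and the MUC4 body 9.52%. The MUC1 body was covered more than 18.9% of windows in list 1. Taken with its flanks, the TCF3 locus was covered 14.1% and 4.97%, more than only 10.3% of windows of 1060 kb in list 1 and 11.6% in list 2. The MUC4 locus, at 24.9% and 11.8%, exceeded 17.8% and 22.6% of windows of 1070 kb. The MUC1 locus, at 29.9% and 15.4%, exceeded 23.4% and 32.5% of windows of 1010 kb. The medians of such windows were 46.3% and 22.8% for the size of the TCF3 locus, and all 3 loci were below the medians of their size in both lists. For MUC1 this turned with the peaks used. Its locus exceeded 57.2% of windows in list 1 restricted to peaks that reach the weakest −log10 p of list 2. It exceeded 88.4% in list 2 restricted to −log10 q of at least 2. That last limit left 671 peaks in list 2. Only 2 of these lay at the MUC1 locus, 372 and 1294 bp wide, and the rank of 88.4% rests on them. On chromosome 19, where 55 windows of 1060 kb were laid, the TCF3 locus exceeded 7.27% of them in each list.

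**Figure D5:**
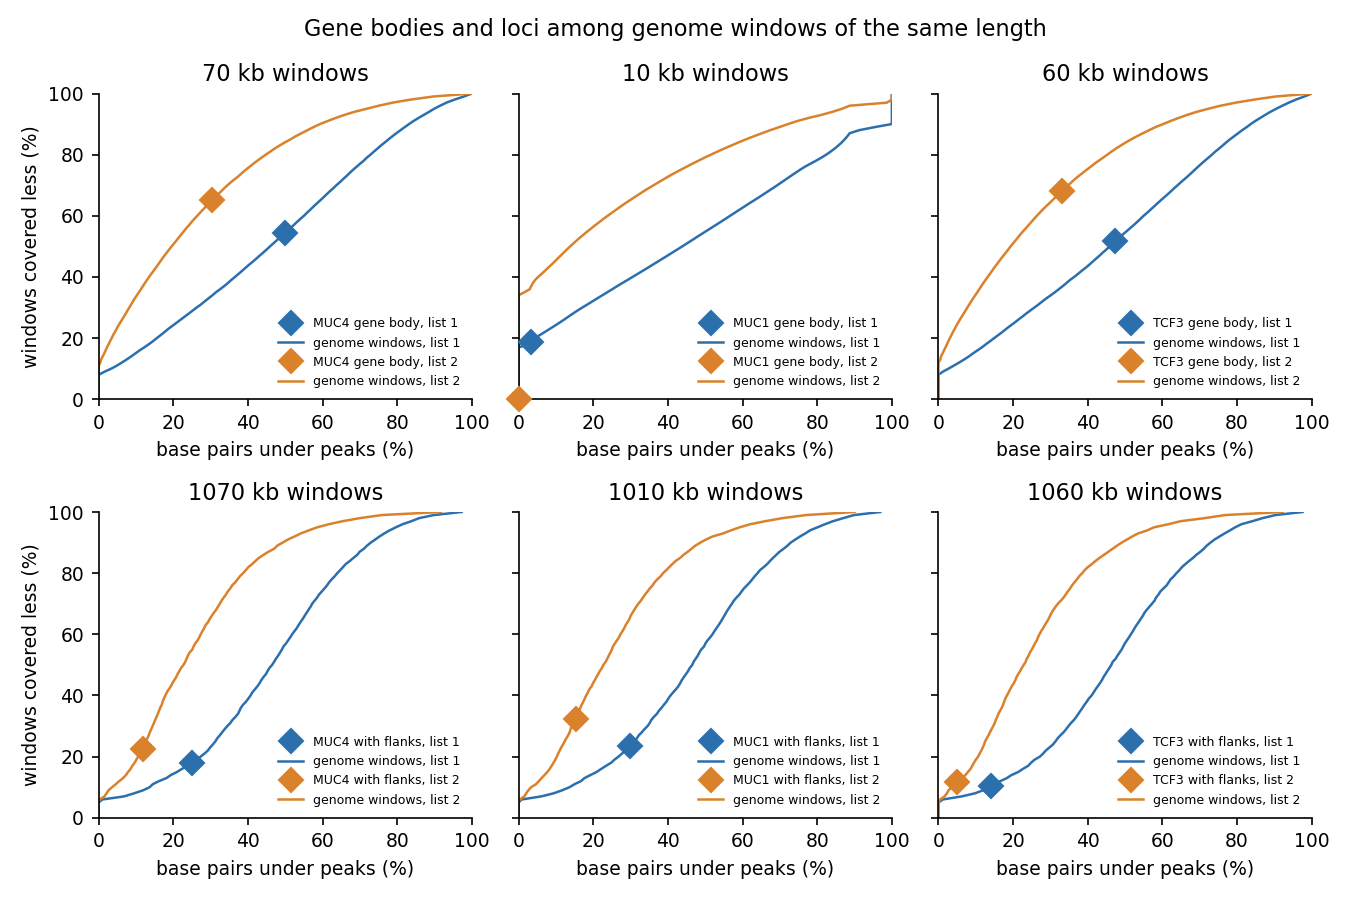
Covered share (x axis, percentage of base pairs under peaks) of each gene body (top) and of each gene with its flanks (bottom), shown as diamonds on the cumulative curve of all genome windows of the same length for list 1 (blue) and list 2 (orange). The y axis is the percentage of windows covered less; the bodies of TCF3 and MUC4 lie near or above the middle of the curves, and all 3 loci with flanks lie in their lower part.

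The lists ranked the flank bins alike within each locus. Over the 20 bins, Spearman's rho between the lists was 0.828 at MUC4, 0.735 at MUC1 and 0.840 at TCF3, and Pearson's r was 0.866, 0.941 and 0.690. These describe neighbouring bins of the same cells and are not evidence from independent samples. List 1 covered more of the bin than list 2 in 19 of 20 bins at MUC4, 20 of 20 at MUC1 and 19 of 20 at TCF3, and it also reaches down to weaker peaks, with a highest p-value of 0.0960 against 0.0265.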

How the data were processed

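H3K9me3 immunoprecipitations (2 samples) and inputs (2 samples) of U2OS cells were sequenced, and 2 broad peak lists were deposited. Per the submitters' processing notes, MACS2 2.2.7.1, Bowtie2 2.5.0, Trim Galore 0.6.7 and bcl2fastq 2.17 were used, with hg19 as the build. The sources used here do not state their roles, the peak cutoff, the control, duplicate handling or pooling. Each peak has a fold, which is the authors' ratio of its signal to background, and −log10 values of p and q, also deposited by the authors.

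The gene borders and flanks were set by position. The members and settings were chosen with earlier results of these data known. The covered share was computed for gene bodies, 500 kb flanks, bins of 50 kb and 10 equal segments of the body, and for windows of the same lengths laid end to end over chromosomes 1 to 22 and X. Flank means weight both sides equally. Chromosome lengths were taken from the last peak end. Peaks were named by rule: up to 5 widest in the body, the widest and the highest fold of the locus, the nearest outside an empty body, the extreme bins and the longest stretch without a peak. Without replicates no test was made, and percentages of windows are descriptions. Coverage functions were tested on 20 simulated sets with peak widths rounded to whole base pairs. The recovered body minus flank difference departed from the intended one by at most 0.0770 percentage points. Depth is unknown. Values were computed with pandas 2.3.3 and numpy 2.4.6 in Python 3.11.15, correlations with scipy 1.17.1 and figures with matplotlib 3.10.9. 1 neighbouring gene is not reported here.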

Additional observations from a re-analysis of the deposited data

How the results depend on the processing

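Leaving out the weaker peaks of list 1, by the lowest −log10 p of list 2, left the MUC4 body 1.02 points above its flanks, and limiting list 1 to its peaks of highest fold, up to the number of base pairs that list 2 covers, left it 0.469 points above. The MUC4 body was then covered more than 65% of its bins under either choice. The first of these choices gave 44.3 points for TCF3. Flanks of 1 Mb gave 8.46 points for MUC4 in list 2, where bins of 100 kb put the body above 100% of them. Widening the body by 10 kb gave 24.1 and 22.3 points for TCF3 in lists 1 and 2, and weighting by fold 51.1 and 36.4. The share of bins covered less than MUC1 in list 1 was 0% with peaks above the median fold, with base pairs of both lists and under both limits on list 1. For the whole loci, the percentage of genome windows covered less depended on nearly every choice. With peaks above the median fold it was, in lists 1 and 2, 19.3% and 32.0% for MUC4, 36.1% and 41.6% for MUC1, and 12.7% and 14.7% for TCF3. With the −log10 p limit it was 38.3%, 57.2% and 26.4% for MUC4, MUC1 and TCF3 in list 1, so MUC1 passed the middle of the windows. Without peak-free stretches of at least 1 Mb it was 11.7% and 17.1%, 17.8% and 27.7%, and 4.05% and 5.56% for the 3 loci in that order. Within the same chromosome it was 6.52% and 19.0% for MUC4, 28.0% for MUC1 in list 2, and 7.27% in each list for TCF3. With −log10 q of at least 2, MUC1 in list 2 exceeded 88.4% of windows, and no peak was left for the other 5 values. That rank of MUC1 rests on 2 of the 671 peaks left in list 2. The causes were not tested. No paired analysis was possible because the lists could not be assigned to samples, and no result has a replicate error. DNA copy number and read placement in repeats were not measured.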

Other observations

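Some peaks at these loci had the lowest fold of their list. Of the peaks of list 1, 29 of 115 at the MUC4 locus, 21 of 103 at the MUC1 locus and 25 of 86 at the TCF3 locus did so (25.2%, 20.4% and 29.1%), against 18.1% of the whole list. In list 2 these were 10 of 55, 6 of 61 and 6 of 33 (18.2%, 9.84% and 18.2%), against 15.6% of the whole list. In the gene bodies of MUC4, MUC1 and TCF3 they were 2 of 15, 1 of 1 and 1 of 5 peaks in list 1, and no peak in list 2.

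When joined over gaps of less than 10 kb, the peaks of list 1 at MUC4 formed 1 domain of 146 kb, from 195413072 to 195559398, that ran past both borders of the gene and was covered 48.1%. It was longer than 86.1% of the 1898 domains of chromosome 3. In list 2 the same joining gave 3 separate domains, of 54.0, 33.4 and 2.19 kb. The block in TCF3 was longer than 75.5% of the 834 domains of chromosome 19 in list 1 and 78.2% of 935 in list 2, so its length was not unusual there.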
